A study of Homo sapiens with 4 samples.

Results

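Of the 25514 H4K20me1 peaks in the deposited table, 6759 carried the annotation class of a promoter within 1 kb of a transcription start, and the 5456 of these that lie outside 6 chromosome parts are described here. Those parts, left out together with their 1303 peaks of the class, were all of chromosome 6, chromosome 2 below 90 Mb, chromosome 9 above 40 Mb, chromosome 17 above 25 Mb, chromosome 5 below 45 Mb and chromosome 8 above 92 Mb. Among the 5456 peaks, 3971 overlapped the start that the table names, 989 began downstream of it and 496 ended upstream of it. They belonged to 4691 genes, of which 4061 had 1 such peak, 515 had 2 and 115 had 3 or more. The reads came from CUT&Tag, in which an antibody against the mark leads a transposase to the chromatin that bears it, on Kasumi-1, an acute myeloid leukemia cell line with the t(8;21) translocation. There were 2 libraries labelled sgSETD8, from cells in which CRISPR/Cas9 was used to knock out SETD8, and 2 labelled sgNT with genotype WT, from cells with a non-targeting guide, each made from 100000 cells. All came from the same line, grown in the same medium, and no label says whether a group's libraries were separate cultures, how complete the knockout was, or whether the cells were a clone or a pool.

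The table holds 1 log2 value per peak for each of the 2 groups and does not say which libraries it comes from. Its header does not say which group is which. The deposited comparison is named with the treated cells ahead of the control, and if its columns follow that name the first-listed group is the knockout. The groups are called first-listed and second-listed throughout. Whole reads could be recovered from the values, 2791207 over all peaks in the first-listed against 2682916 in the second-listed group. The promoter peaks held 772795 of them (27.7%) in the first-listed against 730418 (27.2%) in the second-listed group. With 1 value per group there was no spread between replicates and no test could be made. Intervals given with log2 differences are exact 95% intervals on the recovered reads at the deposited scaling and cover counting error only. A difference whose interval leaves out 0 is larger than counting error at that scaling. It has not been compared with the variation between cultures. With the columns set to equal reads over all peaks, each interval would move down by 0.114. As neither a no-antibody library nor spike-in DNA was used here, a loss of the mark that was equal everywhere would not appear in these values.

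H4K20me1 is a single methyl group on lysine 20 of histone H4. It is placed by SETD8, now named KMT5A, and KMT5B and KMT5C can add further methyl groups to it. The mark is known from the bodies of transcribed genes, from the inactive X chromosome and from condensed mitotic chromatin, and SETD8 itself is made and destroyed in step with the cell cycle. A promoter is the stretch of DNA about a gene's start where transcription is set up. Many human promoters are rich in CG dinucleotides (CpG islands) and lack a TATA box.

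The DNA just upstream of the start is printed for 11 genes whose RefSeq start lay inside their peak. FAM107B, CAST and TMEM50A are shown because their peaks were among the 10 with the highest log2 difference, CEP152, ERP29, DNAJC13 and ODR4 because theirs were among the 10 with the lowest, and KIT because its peak was the deepest. EGR1, JUN and FOS stand for the immediate early genes, the gene group with the highest median difference among those with 5 or more genes. Each sequence is the 250 bases before the start, 5′ to 3′ on the gene's strand, from RefSeq on GRCh38.p14. Capitals mark matches, on either strand, to the GC box GGGCGG, the CCAAT box CCAAT, the ETS motif CCGGAAG, the RUNX motif TGTGGT, the TATA box TATAAA, the E-box CACGTG and the cyclic AMP response element TGACGTCA. Matches may overlap, and the last 2 of these motifs read the same on both strands.
FAM107B (chr10:14572376-14572625, minus strand): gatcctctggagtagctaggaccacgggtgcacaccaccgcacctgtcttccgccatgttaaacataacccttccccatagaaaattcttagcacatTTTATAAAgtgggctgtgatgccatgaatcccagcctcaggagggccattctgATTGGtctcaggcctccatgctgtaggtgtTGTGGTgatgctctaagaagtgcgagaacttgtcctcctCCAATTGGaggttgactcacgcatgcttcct
CAST (chr5:96662126-96662375, plus strand): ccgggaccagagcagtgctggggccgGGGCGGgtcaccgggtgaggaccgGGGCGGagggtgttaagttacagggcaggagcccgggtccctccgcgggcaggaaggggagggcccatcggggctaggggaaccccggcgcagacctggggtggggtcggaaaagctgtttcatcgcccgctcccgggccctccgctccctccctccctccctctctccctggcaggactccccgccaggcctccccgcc
TMEM50A (chr1:25338084-25338333, plus strand): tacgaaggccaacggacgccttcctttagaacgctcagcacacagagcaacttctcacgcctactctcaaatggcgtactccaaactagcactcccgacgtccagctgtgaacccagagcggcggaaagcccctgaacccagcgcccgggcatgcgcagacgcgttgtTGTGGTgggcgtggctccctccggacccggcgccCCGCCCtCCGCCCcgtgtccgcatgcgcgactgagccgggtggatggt
CEP152 (chr15:48811070-48811319, minus strand): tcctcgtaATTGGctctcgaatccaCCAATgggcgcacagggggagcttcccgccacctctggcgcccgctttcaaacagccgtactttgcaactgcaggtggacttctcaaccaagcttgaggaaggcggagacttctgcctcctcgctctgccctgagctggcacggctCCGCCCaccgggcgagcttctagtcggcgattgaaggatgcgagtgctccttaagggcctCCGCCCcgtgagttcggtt
ERP29 (chr12:112013176-112013425, plus strand): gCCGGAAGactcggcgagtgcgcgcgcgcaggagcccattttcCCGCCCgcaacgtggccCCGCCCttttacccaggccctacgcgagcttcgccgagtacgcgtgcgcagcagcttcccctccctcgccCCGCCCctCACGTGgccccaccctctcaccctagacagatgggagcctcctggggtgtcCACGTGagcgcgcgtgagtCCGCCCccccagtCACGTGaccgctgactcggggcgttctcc
DNAJC13 (chr3:132417252-132417501, plus strand): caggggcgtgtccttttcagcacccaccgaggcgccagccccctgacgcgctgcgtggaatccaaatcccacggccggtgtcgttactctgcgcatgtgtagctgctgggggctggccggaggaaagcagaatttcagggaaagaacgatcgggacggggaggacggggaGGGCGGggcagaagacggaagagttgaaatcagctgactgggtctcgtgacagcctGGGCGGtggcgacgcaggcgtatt
ODR4 (chr1:186375588-186375837, plus strand): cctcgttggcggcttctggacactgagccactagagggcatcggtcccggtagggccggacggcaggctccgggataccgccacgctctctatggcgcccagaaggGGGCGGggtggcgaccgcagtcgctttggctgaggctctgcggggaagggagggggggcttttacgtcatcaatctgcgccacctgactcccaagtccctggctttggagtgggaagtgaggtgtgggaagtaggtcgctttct
KIT (chr4:54657707-54657956, plus strand): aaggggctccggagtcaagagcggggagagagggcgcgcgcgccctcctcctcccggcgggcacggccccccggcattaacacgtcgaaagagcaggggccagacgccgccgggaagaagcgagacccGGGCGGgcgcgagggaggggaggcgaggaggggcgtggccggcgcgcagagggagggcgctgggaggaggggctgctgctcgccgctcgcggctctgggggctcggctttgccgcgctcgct
EGR1 (chr5:138465229-138465478, plus strand): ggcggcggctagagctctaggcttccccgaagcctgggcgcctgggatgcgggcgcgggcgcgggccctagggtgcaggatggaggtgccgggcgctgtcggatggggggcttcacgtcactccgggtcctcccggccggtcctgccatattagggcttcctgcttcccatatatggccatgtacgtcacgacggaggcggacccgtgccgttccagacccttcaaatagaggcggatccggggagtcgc
JUN (chr1:58784048-58784297, minus strand): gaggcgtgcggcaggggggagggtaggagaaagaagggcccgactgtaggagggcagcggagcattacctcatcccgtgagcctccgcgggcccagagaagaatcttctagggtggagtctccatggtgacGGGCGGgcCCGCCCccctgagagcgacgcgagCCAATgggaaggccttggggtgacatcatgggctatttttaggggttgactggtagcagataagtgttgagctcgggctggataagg
FOS (chr14:75278578-75278827, plus strand): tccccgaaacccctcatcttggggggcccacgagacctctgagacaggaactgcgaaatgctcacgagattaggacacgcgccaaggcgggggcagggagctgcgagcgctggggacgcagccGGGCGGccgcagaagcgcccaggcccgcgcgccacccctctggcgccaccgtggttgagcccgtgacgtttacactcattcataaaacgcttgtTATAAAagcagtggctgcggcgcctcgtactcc
Of the 11, the FAM107B window was the poorest in CG, with 5 CG dinucleotides, and it held no GC box, 2 overlapping TATAAA matches and 1 RUNX match. The KIT window was the richest, with 34 CG dinucleotides. The ERP29 window held 4 GC boxes, 3 E-boxes and 1 ETS match. FOS held the only other TATAAA match, and EGR1 held none of the 7 motifs. A match is a description of letters, not evidence of binding.

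The windows of starts inside a promoter peak differed in composition from those of genes without such a peak. Among protein-coding genes outside the left-out parts, 3187 RefSeq starts lay inside a peak and 12534 belonged to genes with none. The median GC content was 64.8% for starts inside peaks and 60.4% for genes without one, and the median number of CG dinucleotides in 250 bases was 22 inside peaks and 13 without. Only 14 of the starts inside peaks had no CG at all, against 493 of the starts of genes without a peak. GC boxes stood in 69.6% of windows inside peaks (95% Wilson interval 67.9 to 71.1) and in 48.3% of windows of genes without one (47.4 to 49.2). Of all 18594 protein-coding starts outside the left-out parts 53.5% held one, and of all 35116 promoters in the RefSeq table, which include noncoding genes and the left-out parts, 42.6%. The ETS motif was in 17.1% (15.8 to 18.4) inside peaks, 9.33% (8.83 to 9.85) without a peak and 8.52% of all promoters. The CCAAT box was in 39.8% (38.1 to 41.5) inside peaks, 31.8% (31.0 to 32.7) without and 32.0% of all. The CACGTG E-box was in 9.76% (8.78 to 10.8) inside peaks, 6.91% (6.48 to 7.37) without and 6.35% of all, and the cyclic AMP response element in 2.89% (2.36 to 3.53), 1.80% (1.58 to 2.04) and 1.65% of the same sets. The order was the other way round for the TATA box, in 4.14% (3.50 to 4.89) inside peaks, 10.1% (9.62 to 10.7) without and 10.7% of all, and for the RUNX motif, in 7.50% (6.64 to 8.47), 10.0% (9.49 to 10.5) and 10.98%. Base composition moves with these shares, and its part in them was not tested. Starts of 1 gene overlap, so the intervals are narrower than independent promoters would give.

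Promoter peaks were wider at the median than peaks of the 3 classes they were set against, and not denser than those in first introns or 1 to 3 kb from a start. Their median width was 1344 bp (quartiles 862 and 1917), against 1034 bp for the 1594 promoter peaks annotated 1 to 3 kb from a start, 1029 bp for the 2906 first intron peaks and 984 bp for the 3977 distal intergenic peaks. A promoter peak held a median of 103 reads in the first-listed against 100 in the second-listed group. The medians were 85 first-listed against 79 second-listed reads for peaks 1 to 3 kb away, 92 first-listed against 82 second-listed reads in first introns, and 47 first-listed against 50 second-listed reads in distal intergenic peaks. Per kb of width, the mean of the scaled reads of both groups had a median of 80.3 in promoter peaks, 82.0 at 1 to 3 kb, 87.1 in first introns and 51.7 in distal intergenic peaks. The higher read number of promoter peaks over these genic classes thus went with their width, while distal intergenic peaks were lower on either scale. The promoter peaks covered 8.02 Mb in all. Overlap with a start places a peak in this class, and a wider peak is more likely to overlap one. The part of this in the greater width was not tested.

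**Figure D1:**
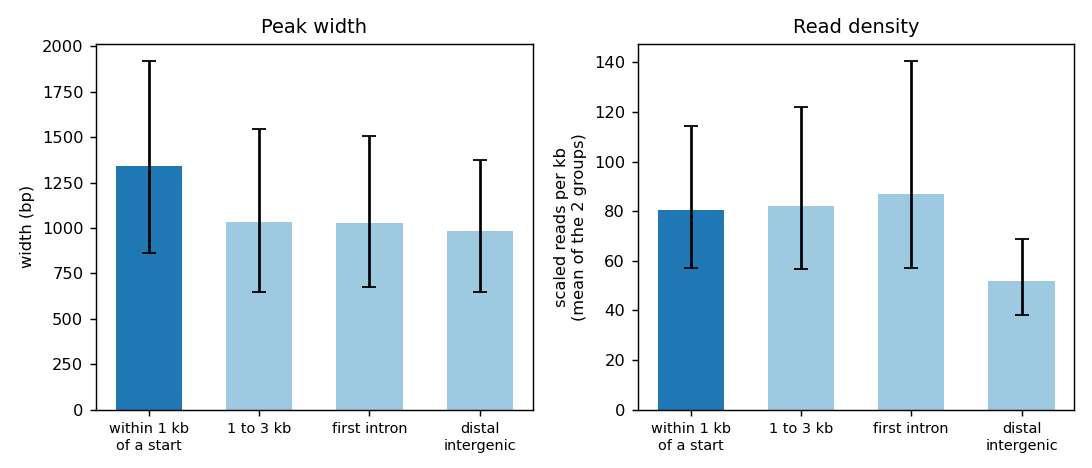
Peak width in bp (left) and scaled reads per kb of width, as the mean of the 2 groups (right), for promoter peaks within 1 kb of a start and for 3 other classes. Bars are medians over peaks and whiskers the quartiles. Promoter peaks had the highest median width, 1344 bp, and a median density of 80.3 scaled reads per kb, between those of first intron (87.1) and distal intergenic peaks (51.7).

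Within the promoter peaks, width and density did not move together. With the peaks cut at widths of 863, 1345 and 1918 bp into bins of about equal number, the median signal was 53.1, 82.2, 117 and 213 scaled reads from the narrowest to the widest bin, and the median density was 86.3, 74.7, 72.8 and 86.8 scaled reads per kb. The density was lowest in the middle bins. The widest peaks were at ABI1, a regulator of actin assembly, with 5754 bp, at NORAD, a long noncoding RNA that binds Pumilio proteins, with 5357 bp, and at ITGB1, the integrin beta 1 chain, with 5108 bp. Each of these held its RefSeq start. ABI1 had 855 reads in the first-listed against 774 in the second-listed group, NORAD 508 first-listed against 424 second-listed reads, and ITGB1 635 first-listed against 555 second-listed reads. Their log2 differences were 0.20 (0.06 to 0.34), 0.31 (0.13 to 0.51) and 0.25 (0.08 to 0.42), all under 0.4. At the deposited scaling all were positive by more than counting error. With equal reads the intervals of ABI1 and ITGB1 would include 0, and that of NORAD would not.

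Peaks that overlapped a start reached farther into the gene than away from it. The 3971 of them extended a median of 284 bp upstream of the start (quartiles 99.5 and 625.5) and 930 bp downstream (437 and 1529). In 2895 (72.9%, Wilson 71.5 to 74.3) the downstream side was the longer. Where a peak held exactly 1 RefSeq start, 1635 peaks in all, the share was 83.4% (81.5 to 85.1), with medians of 240 bp upstream and 1054 bp downstream. Of the overlapping peaks, 31.3% still covered the position 500 bp upstream and 14.3% that 1000 bp upstream. Peaks that overlapped a start were the widest, with a median of 1437 bp, against 1175 bp for those that began downstream and 965.5 bp for those that ended upstream. Their densities ran the other way, 79.4 scaled reads per kb for overlapping, 81.8 for downstream and 86.3 for upstream peaks. A wider peak is more likely to overlap a start, and the part of this in these widths was not tested. The rule's 1 kb limit was not a visible step. Peaks 900 to 999 bp from their start (n = 98) had a median width of 1079 bp and signal of 79.9 scaled reads, and those 1000 to 1099 bp away (n = 87) had 1098 bp and 83.4.

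**Figure D2:**
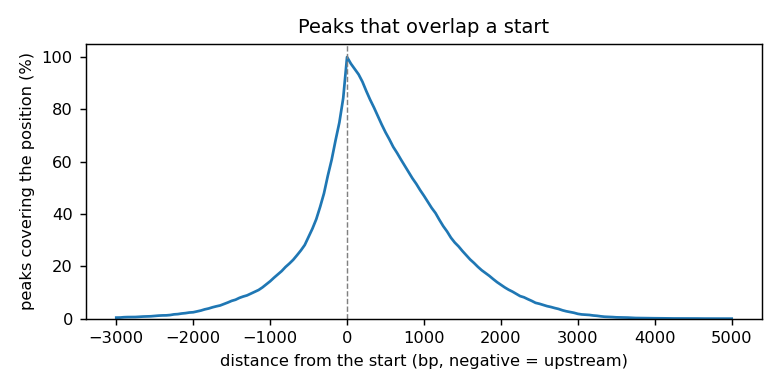
Share of the 3971 start-overlapping promoter peaks that cover each position, against distance from the start in bp, with negative values upstream. The curve is lopsided towards the gene body, the median reach being 930 bp downstream and 284 bp upstream.

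Many of the peaks lay over 1 kb from any start listed for their gene in the RefSeq promoter table. That reference holds 35116 promoters of 27305 genes, and whether it lists every start of a gene was not checked. RefSeq starts, and distances to them, refer to it throughout. For 4415 peaks the gene had an entry in the RefSeq promoter table. In 2297 of them (52.0%) a RefSeq start of that gene lay inside the peak, in 925 (21.0%) it lay within 1 kb, in 307 (6.95%) 1 to 5 kb away and in 886 (20.1%) over 5 kb away. Peaks that held their gene's RefSeq start were wider, with a median of 1469 bp against 1190.5 bp for those over 5 kb from it, and less dense, 78.4 against 87.8 scaled reads per kb. Their median log2 differences were 0.11 and 0.12. The 589 peaks that held RefSeq starts of both strands had a median width of 1616 bp, the 1911 with starts on 1 strand 1419 bp and the 2956 with none 1242 bp. A wider peak is more likely to hold a start, and the part of this in the widths of these sets was not tested.

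The CG content of the window was compared with the peak in protein-coding genes whose peak held exactly 1 RefSeq start. The peaks with 29 to 49 CG dinucleotides (n = 342) had a median width of 1672 bp and a signal of 139 scaled reads, against 1300 bp and 89.2 scaled reads for those with 0 to 15 (n = 394). The 2 bins between them lay between these values, at 1342 and 1423 bp. The log2 difference did not follow that order, with medians of 0.12, 0.12, 0.06 and 0.13 from the CG-poorest to the CG-richest bin.

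Of 16715 protein-coding genes outside the left-out parts, 4259 (25.5%) had a promoter peak. By chromosome the share was highest on chromosome 18, at 36.3% (98 of 270 genes, exact 95% interval 30.6 to 42.3), and on chromosome 3, at 33.9% (361 of 1066, 31.0 to 36.8). Among the chromosomes other than Y it was lowest on the X chromosome, at 12.3% (104 of 848, 10.1 to 14.7), and on the part of chromosome 17 kept here, at 13.4% (46 of 344, 9.96 to 17.4). Of these 4, the 2 highest do not differ beyond their intervals, nor do the 2 lowest. The densest promoter peaks by chromosome were on chromosome 19, with a median of 101 scaled reads per kb, and the X chromosome had 61.2. Copies of each chromosome were not counted here, and their part in these shares and densities was not tested. Median log2 differences by chromosome ran from 0.06 to 0.19, with chromosome 10 the highest.

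The 5 deepest promoter peaks were at KIT, CHIC2, UPF1, DDX39A and RBPJ. KIT, the receptor of stem cell factor, had 1938 reads in the first-listed against 2283 in the second-listed group over 3910 bp (chr4:54657940-54661849), a log2 difference of −0.18 (−0.27 to −0.09). CHIC2, a membrane-associated protein gene also on chromosome 4, had 1746 first-listed against 1626 second-listed reads, a difference of 0.16 (0.06 to 0.26). With 531 scaled reads per kb at CHIC2 and 528 at KIT, these were also the 2 densest. UPF1, a helicase of nonsense-mediated RNA decay, had 1351 first-listed against 1207 second-listed reads, a difference of 0.23 (0.11 to 0.33). DDX39A, an RNA helicase, had 1136 first-listed against 1330 second-listed reads, a difference of −0.18 (−0.29 to −0.06). RBPJ, the DNA-binding factor of Notch signalling, had 1184 first-listed against 980 second-listed reads, a difference of 0.32 (0.21 to 0.45). The peak of the KIT promoter begins only 17 bp upstream of the start printed above and lies over the first part of the gene. All peaks between 54 and 55 Mb of chromosome 4, 23 in number, had a median of 190.9 scaled reads per kb, against 92.75 in the 8 peaks of the next Mb and 68.25 in the 2 peaks of the one before. The number of copies of this region was not measured here, and its part in the depth was not tested.

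The log2 difference between the groups was small at most promoters and leaned to the first-listed group. Its median over peaks was 0.11, with quartiles of −0.11 and 0.34. It was above 0 in 3502 peaks (64.2%) and below 0 in 1902 (34.9%). A log2 difference of 1 or more in size, a doubling or halving, was reached by 70 of 5456 promoter peaks (1.28%, Wilson 1.02 to 1.62), against a background of 2.46 percent of all peaks in the table. Of the 70, 54 were higher in the first-listed group (0.990%, background 1.55 percent) and 16 lower (0.293%, background 0.909 percent). The share was 2.51% (1.85 to 3.40) at 1 to 3 kb, 2.96% (2.40 to 3.64) in first introns and 3.72% (3.18 to 4.36) in distal intergenic peaks. These intervals did not meet that of the promoter peaks. They count peaks, which are not replicates of a group, and do not cover variation between libraries. Reads per peak also differed between these classes, as given above, and their part in the shares was not tested.

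The lean towards the first-listed group rests on how the columns were scaled. With the columns set to equal reads over all peaks, every difference moves down by 0.114. The median of the promoter peaks was then −0.0041, and the peaks past a log2 difference of 1 were 26 higher and 37 lower, not 54 and 16. What does not move with the scaling is the order of the classes: the median of promoter peaks, 0.11, stood above that of distal intergenic peaks (0.03) and below that of first intron peaks (0.18). By the unadjusted p-values of the authors' deposited table, 198 promoter peaks had a p under 0.05 (3.63%, background 5.06 percent), 160 of them higher in the first-listed group (background 3.37 percent) and 38 lower (background 1.69 percent). None had an adjusted p under 0.05 (background 0.0 percent), and the lowest adjusted p in that table among promoter peaks was 0.421.

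The spread of the differences narrowed with depth. Its standard deviation over peaks was 0.409 in the 1191 peaks of 32 to 64 scaled reads, 0.380 from 64 to 128 (n = 1922), 0.300 from 128 to 256 (n = 1410), 0.240 from 256 to 512 (n = 569) and 0.185 in the 72 peaks above that. Counting error alone would give 0.298, 0.217, 0.154, 0.112 and 0.079 in these bins, less than was seen in each. If both ends of each fragment had been counted, it would give 0.421, 0.307, 0.218, 0.158 and 0.112, which is above the spread seen at 32 to 64 scaled reads and below it in the 4 deeper bins. In the shallower peaks the spread was 0.575 at 8 to 32 scaled reads, against 0.429 from counting error or 0.607 with both ends counted, and 0.588 under 8 scaled reads, where counting error alone would give 1.88. No peak of 256 scaled reads or more reached a log2 difference of 1. The share above 0 was 56.1% at 32 to 64 scaled reads and 84.7% in the deepest bin, whose median was 0.22. In 110 promoter peaks each column was at its lowest step, where the 2 constants alone give a difference of about 0.06.

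**Figure D3:**
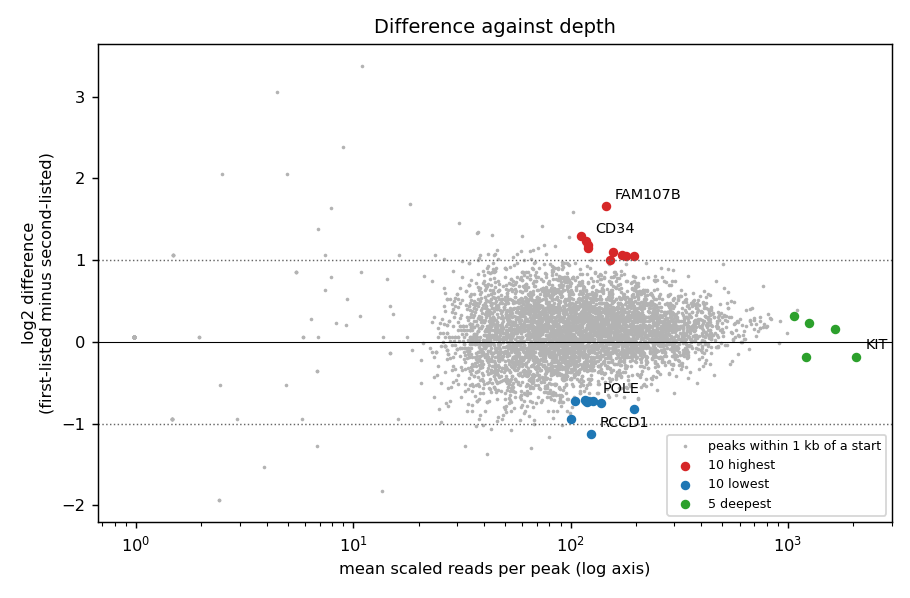
Log2 difference (first-listed minus second-listed group) against the mean scaled reads of each promoter peak, on a log axis. Grey points are the 5456 peaks, coloured points the 10 highest and 10 lowest named peaks of at least median signal and the 5 deepest, and dotted lines mark a difference of 1. The cloud narrows with depth, and its centre lies a little above 0.

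KMT5A, the targeted gene, which encodes SETD8, had 1 promoter peak of 1594 bp (chr12:123389698-123391291) with 126 reads in the first-listed against 105 in the second-listed group, a log2 difference of 0.32 (−0.07 to 0.71), so the groups did not differ beyond counting error there. The peak lies 787 bp from the RefSeq start, and the mark on a gene's own chromatin does not check its knockout. All 3 KMT5A peaks in the table had positive differences, from 0.15 to 0.32.

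Of the 10 peaks with the highest differences among those of at least median signal, 8 overlapped a start, and their differences ran from 1.00 to 1.66. FAM107B, a little-studied gene of the actin-associated FAM107 family, had 221 reads in the first-listed against 73 in the second-listed group (chr10:14572162-14573239), a difference of 1.66 (1.27 to 2.06). It had the lowest unadjusted p of all promoter peaks in the authors' deposited table, 3.28e-05, with an adjusted p of 0.421. Another FAM107B promoter peak had 153 first-listed against 53 second-listed reads (1.59, 1.13 to 2.07), 2 intronic peaks had 1.51 and 1.22, and the remaining peak, at a start upstream of these, had 60 first-listed against 64 second-listed reads and −0.04 (−0.57 to 0.49). The difference thus covered 4 neighbouring peaks of the gene and not the outermost.

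CD34, the surface marker of blood stem and progenitor cells, had both of its peaks in this class. The deeper had 167 reads in the first-listed against 73 in the second-listed group (chr1:207890645-207892230), a difference of 1.24 (0.85 to 1.67), and the other had 108 first-listed against 42 second-listed reads (chr1:207898587-207899752), a difference of 1.42 (0.89 to 1.97). They lie 18895 and 11373 bp from the RefSeq start of CD34. Their unadjusted p in the authors' deposited table was 0.00216 and 0.0009, and the adjusted p 0.649 for each.

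VPS37C, a subunit of the ESCRT-I sorting complex, had 159 first-listed against 67 second-listed reads (1.30, 0.88 to 1.74). PARVB, which links integrins to actin, had 167 first-listed against 76 second-listed reads (1.18), and ANK2, an ankyrin that anchors membrane proteins, 167 first-listed against 78 second-listed reads (1.15). The PARVB and ANK2 peaks lie 91029 and 19557 bp from the RefSeq starts. CAST, the calpain inhibitor calpastatin, had 215 reads in the first-listed against 104 in the second-listed group (1.10, 0.76 to 1.46), and TMEM50A, a membrane protein gene, had 232 first-listed against 116 second-listed reads (1.06, 0.73 to 1.39). Both of these peaks hold the RefSeq start and the whole window printed above. LCP1, the leukocyte actin bundler L-plastin, had 263 first-listed against 132 second-listed reads (1.05), ARID5A, an RNA- and DNA-binding protein, 242 first-listed against 122 second-listed reads (1.05), and CLDND1, a claudin-like membrane protein, 204 first-listed against 106 second-listed reads (1.00). Other peaks of these genes had smaller differences: the 3 LCP1 peaks ran from −0.03 to 1.05, and the other ARID5A peak had 367 first-listed against 308 second-listed reads (0.31, 0.09 to 0.53).

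Among the 10 lowest peaks, 6 overlapped a start, and at the deposited scaling only RCCD1 went past a log2 difference of 1. With equal reads PLXDC2 would pass it too. Of the 10 highest, CAST, TMEM50A, LCP1, ARID5A and CLDND1 would then fall under 1. RCCD1, a partner of the demethylase KDM8, had 78 reads in the first-listed against 177 in the second-listed group (chr15:90960079-90961548), a difference of −1.13 (−1.53 to −0.73), with an unadjusted p of 0.00503 and an adjusted p of 0.764 in the authors' deposited table. PLXDC2, a transmembrane protein with a plexin domain, had 69 first-listed against 138 second-listed reads (−0.94, −1.38 to −0.52). SMAD6, an inhibitor of BMP signalling, had 141 first-listed against 259 second-listed reads (−0.82, −1.13 to −0.52), and of its 7 peaks 6 were below 0 and 1 at 0.

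The other 7 lay between −0.75 and −0.71. CEP152, needed to duplicate centrioles, had 103 reads in the first-listed against 179 in the second-listed group. POLE, the catalytic subunit of DNA polymerase epsilon, had 96 first-listed against 165 second-listed reads, and TPX2, which nucleates spindle microtubules, 91 first-listed against 156 second-listed reads. The POLE peak lies 61246 bp from its RefSeq start. The other POLE promoter peaks had −0.21 (−0.57 to 0.14) and −0.13 (−0.57 to 0.30), within counting error. Of the 6 POLE peaks of any class, 5 were below 0 and 1 above. An intronic CEP152 peak had 52 first-listed against 52 second-listed reads (0.06, −0.53 to 0.64). ERP29, a chaperone of the endoplasmic reticulum, had 90 first-listed against 155 second-listed reads, DNAJC13, a co-chaperone of endosomes, 89 first-listed against 152 second-listed reads, VAV3, a guanine nucleotide exchange factor, 79 first-listed against 135 second-listed reads in a peak 97341 bp from its RefSeq start, and ODR4, involved in the trafficking of membrane receptors in worms, 88 first-listed against 150 second-listed reads. For each of the 7 genes, the interval of the named peak left out 0. The unadjusted p of these peaks in the authors' deposited table ran from 0.0556 to 0.0767, and the adjusted p from 0.974 to 0.991. The 7 peaks of VAV3 in the table did not share a sign, with 4 above 0 and the highest at 0.57. These genes were named for the size of their differences, which are given as a description.

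**Figure D4:**
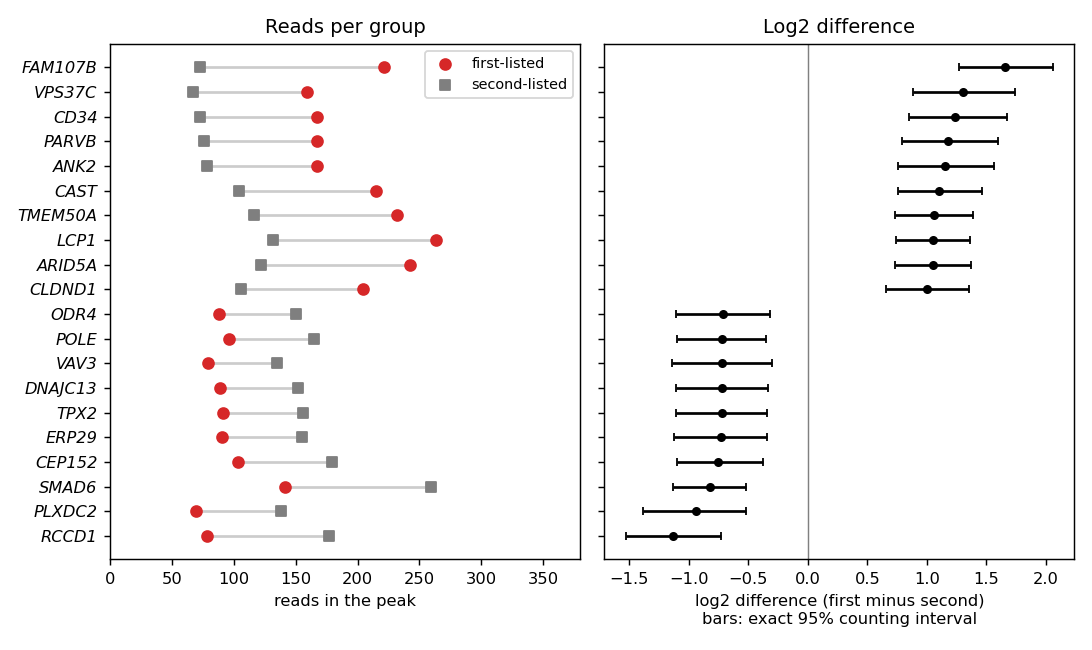
Reads in the peak per group (left; red circles first-listed, grey squares second-listed) and log2 difference with its exact 95% counting interval (right) for the 10 highest and 10 lowest promoter peaks of at least median signal. Values are at the deposited scaling. FAM107B (1.66) is the farthest from 0, and among the 10 lowest only RCCD1 (−1.13) passes 1 in size at that scaling.

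Some of the farthest differences were in shallow peaks. CLEC18B, a lectin gene with near-identical copies, had 20 reads in the first-listed against 2 in the second-listed group (3.38), and reads could be split between the copies. ZNF519 had 45 first-listed against 17 second-listed reads (1.46, 0.63 to 2.36) and ZNF385B 23 first-listed against 62 second-listed reads (−1.37, −2.13 to −0.66). Of the promoter peaks, 59 lay on alternate or unplaced sequences, where reads can be shared with the main chromosome, and 48 of these stood at the lowest step in both columns.

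For 270 genes with 2 or more promoter peaks of at least median signal, all peaks had the same sign in 158, and the median range between a gene's peaks was 0.27. The widest range was in GATAD2A, a subunit of the NuRD complex, from −0.60 to 0.61. These ranges were not set against counting error.

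Promoter peaks were looked up for 9 genes that mark Kasumi-1 or carry its translocation. CD34, KIT, RUNX1 and SPI1 had promoter peaks. CD33, CD38, MPO and CEBPA had no peak of any class in the table, and the 3 promoter peaks of RUNX1T1 lie on the left-out part of chromosome 8. A peak of this mark is not a measure of expression. RUNX1, the blood transcription factor cut by the translocation, had 3 promoter peaks. The first, which holds a start listed in the RefSeq promoter table, had 205 reads in the first-listed against 254 in the second-listed group (−0.25, −0.52 to 0.02). The others had 90 first-listed against 103 second-listed reads (−0.14, −0.56 to 0.28) and 304 first-listed against 304 second-listed reads (0.06, −0.18 to 0.29). SPI1, the myeloid factor PU.1, had 362 first-listed against 369 second-listed reads (0.03, −0.18 to 0.24), and CBFB, the partner subunit of RUNX1, 186 first-listed against 222 second-listed reads (−0.20, −0.49 to 0.09). TCF12, an E protein found in complexes with RUNX1-RUNX1T1, had 40 first-listed against 56 second-listed reads in one promoter peak (−0.43, −1.05 to 0.18) and 58 first-listed against 56 second-listed reads in the other (0.11, −0.45 to 0.66). At the deposited scaling none of these 7 peaks differed beyond counting error. With equal reads every interval moves down by 0.114, and those of the first RUNX1 peak and of CBFB would then leave out 0.

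Gene groups differed in how many of their promoters carried a peak. A peak was found for 35 of 54 splicing factor genes (64.8%, exact interval 50.6 to 77.3), 32 of 50 Polycomb, trithorax and histone lysine enzymes (64.0%, 49.2 to 77.1), 20 of 33 proteasome genes (60.6%, 42.1 to 77.1), 16 of 27 immediate early genes (59.3%, 38.8 to 77.6) and 28 of 49 DNA damage response genes (57.1%, 42.2 to 71.2), against 25.5% of all protein-coding genes. The share was 65.4% among RUNX1-RUNX1T1 factors and partners (17 of 26) and 65.2% among H4K20 methylation genes (15 of 23). It lay between 40.5% and 55.8% for SLC25 carriers, oxidative phosphorylation, DNA replication, p53, BCL2 family and cell cycle genes. Cytosolic ribosomal and mitochondrial dynamics genes lay in that range too, so most groups stood above 25.5%. Splicing factor genes also had the densest peaks of the groups with 5 or more genes, with a median of 143 scaled reads per kb. None of 29 HOX genes outside the left-out parts had one (upper limit 11.9%). Of 467 ZNF genes, which encode zinc finger proteins, 75 had one (16.1%, 12.9 to 19.7). Of markers of other tissues, 4 of 26 had one for neurons (15.4%, 4.36 to 34.9), 3 of 22 for erythroid and megakaryocytic cells (13.6%, 2.91 to 34.9), 2 of 22 for lymphoid cells (9.09%, 1.12 to 29.2) and 1 of 23 for liver (4.35%, 0.11 to 21.95). The share among myeloid differentiation genes was 8 of 40 (20%, 9.05 to 35.7). The intervals of all of these but the liver markers include the 25.5% of all protein-coding genes. The liver gene was AFP, with 35 reads in the first-listed against 18 in the second-listed group. These groups were chosen with earlier results of the data known, and their shares are a description.

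By log2 difference, each gene's mean over its promoter peaks was taken. Over all 4691 genes the median was 0.11 and 64.3% were above 0. Of the 23 groups with a promoter peak, 18 had a median above 0, and 11 did once the columns were set to equal reads. The immediate early genes, which are switched on within minutes of a stimulus, had the highest median of the groups with 5 or more genes, 0.42 (0.31 with equal reads), with 13 genes above 0 and 3 below. No peak of theirs passed a log2 difference of 1, against 2.46 percent of all peaks.

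Of the transcription factors among them, EGR1 had 142 reads in the first-listed against 101 in the second-listed group (0.55, 0.17 to 0.93), JUN 252 first-listed against 191 second-listed reads (0.46, 0.18 to 0.74) and FOS 129 first-listed against 102 second-listed reads (0.40, 0.01 to 0.78). NR4A1, an orphan nuclear receptor, had 286 first-listed against 203 second-listed reads (0.55, 0.29 to 0.82), and ATF3, a stress-induced factor, 197 first-listed against 148 second-listed reads (0.47, 0.15 to 0.79). FOSB, with 53 first-listed against 41 second-listed reads, had 0.43 (−0.19 to 1.05), and NR4A2, with 46 first-listed against 30 second-listed reads, had 0.67 (−0.02 to 1.39), within counting error. The intervals of EGR1, JUN, FOS, NR4A1 and ATF3 left out 0. With equal reads that of FOS would include 0, and the others would not.

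Of the feedback genes in the group, PPP1R15A, which restores translation after stress, had 345 reads in the first-listed against 215 in the second-listed group (0.73, 0.49 to 0.99), ZFP36, which speeds the decay of AU-rich mRNAs, 269 first-listed against 188 second-listed reads (0.57, 0.30 to 0.85), and DUSP6, a phosphatase of ERK, 133 first-listed against 104 second-listed reads (0.41, 0.03 to 0.80). The 3 genes below 0 were DUSP1, also a MAP kinase phosphatase, with 56 first-listed against 76 second-listed reads (−0.38, −0.91 to 0.13), ZFP36L1 with 199 first-listed against 229 second-listed reads (−0.14, −0.43 to 0.13) and IER5 with 288 first-listed against 312 second-listed reads (−0.06, −0.29 to 0.18). By unadjusted p in the authors' deposited table, 1 of the group's 17 peaks was under 0.05, near the background of 5.06 percent, that of PPP1R15A (0.0411), with an adjusted p of 0.965.

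The DNA replication genes stood at the other end, with a median of −0.13 (−0.24 with equal reads). Of 23 genes 7 were above 0 and 15 below. None of their 28 peaks passed a log2 difference of 1, against 2.46 percent of all peaks. Besides POLE, POLD1, the catalytic subunit of polymerase delta, had 65 reads in the first-listed against 106 in the second-listed group in the peak at its RefSeq start (−0.65, −1.12 to −0.19). Its other 2 promoter peaks had −0.19 and 0.18, with intervals across 0. GINS4, a subunit of the replicative helicase, had 29 first-listed against 54 second-listed reads in one peak (−0.84, −1.54 to −0.16) and 90 first-listed against 80 second-listed reads in the other (0.23, −0.22 to 0.68).

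The 36 cell cycle and mitosis genes had a median of −0.02, with 16 above 0 and 19 below. None of their 41 peaks passed 1, against 2.46 percent of all peaks. CDKN3, a phosphatase of cyclin-dependent kinases, had 56 reads in the first-listed against 105 in the second-listed group (−0.85, −1.34 to −0.37). KIF20A, a kinesin of cytokinesis, had 38 first-listed against 71 second-listed reads (−0.84, −1.45 to −0.26) in one peak and 70 first-listed against 92 second-listed reads (−0.34, −0.81 to 0.13) in the other. Among the 28 DNA damage response genes, 15 above 0 and 13 below, 1 of 31 peaks passed a log2 difference of 1, beside a background of 2.46 percent, that of XRCC2, of homologous recombination repair, with 38 first-listed against 97 second-listed reads at its RefSeq start (−1.30, −1.88 to −0.74). Its other promoter peak had 49 first-listed against 65 second-listed reads (−0.35, −0.92 to 0.21). ERCC1, of nucleotide excision repair, had 58 first-listed against 36 second-listed reads (0.74, 0.12 to 1.39), and PRKDC, the kinase of end joining, 57 first-listed against 38 second-listed reads (0.64, 0.02 to 1.27).

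Among the genes that write, remove or read H4K20 methylation, 15 of 23 had a promoter peak, with a median of 0.09 (−0.02 with equal reads), 9 above 0 and 5 below. KMT5B, which turns H4K20me1 into the dimethylated form, had 335 reads in the first-listed against 202 in the second-listed group (0.79, 0.53 to 1.05) in a peak 20555 bp from its RefSeq start. FBXW11, a subunit of ubiquitin ligases, had 272 first-listed against 205 second-listed reads (0.47, 0.20 to 0.73). NCAPG2, a condensin II subunit, had 96 first-listed against 129 second-listed reads in one peak (−0.37, −0.77 to 0.02) and 69 first-listed against 55 second-listed reads in the peak at its RefSeq start (0.38, −0.15 to 0.92). The Polycomb, trithorax and histone lysine enzymes had a median of 0.14, with 22 above 0 and 10 below. None of their 49 peaks passed 1, against 2.46 percent of all peaks. KDM2A, a demethylase of H3K36 that binds CpG islands, had 340 first-listed against 190 second-listed reads in a peak 11971 bp from its RefSeq start (0.90, 0.64 to 1.16), and 639 first-listed against 633 second-listed reads (0.08) and 340 first-listed against 337 second-listed reads (0.07) in the 2 peaks that hold one. PHC2, of Polycomb complex 1, had 120 first-listed against 65 second-listed reads in a peak 14457 bp away (0.94, 0.49 to 1.40) and 232 first-listed against 255 second-listed reads in a peak 256 bp away (−0.09, −0.34 to 0.18). In KDM2A and PHC2 the peak near the RefSeq start differed least. KDM5B, a demethylase of H3K4, had 207 first-listed against 121 second-listed reads (0.83, 0.50 to 1.17) in a peak 171 bp from its start.

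The RUNX1-RUNX1T1 factors and partners had a median of −0.01, with 7 genes above 0 and 9 below. EP300, the acetyltransferase p300, had 40 reads in the first-listed against 68 in the second-listed group in one peak (−0.71, −1.31 to −0.12) and 123 first-listed against 161 second-listed reads in the other (−0.33, −0.68 to 0.02). JMJD1C, a jumonji protein bound by the fusion, had 391 first-listed against 263 second-listed reads (0.63, 0.40 to 0.86) at one start and 370 first-listed against 382 second-listed reads (0.01, −0.20 to 0.22) at the other. DNMT1, the maintenance DNA methyltransferase, had 4 promoter peaks, all below 0, from −0.55 (63 first-listed against 96 second-listed reads) to −0.08 (79 first-listed against 87 second-listed reads). Of the 8 stem and progenitor genes with a peak, CD34 alone passed 1, with 2 of the group's 12 peaks, beside a background of 2.46 percent. HHEX, a homeobox gene of early blood, had 142 first-listed against 191 second-listed reads at its RefSeq start (−0.37, −0.69 to −0.05) and 154 first-listed against 110 second-listed reads in a peak 1829 bp from it (0.54, 0.18 to 0.91). Among myeloid differentiation genes, 8 of 40 had a peak, with a median of 0.15. None of their 10 peaks passed 1, against 2.46 percent of all peaks. CSF2RB, a shared cytokine receptor chain, had 55 first-listed against 32 second-listed reads (0.84, 0.18 to 1.51) and 46 first-listed against 42 second-listed reads (0.19, −0.45 to 0.83) in its 2 promoter peaks.

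Among p53 targets, 14 of 30 had a peak, with a median of 0.21, 10 above 0 and 4 below. DRAM1, a lysosomal membrane protein of autophagy, had 117 reads in the first-listed against 54 in the second-listed group (1.17, 0.70 to 1.67). Of the group's 17 peaks only this 1 passed 1, beside a background of 2.46 percent. MDM2, the ubiquitin ligase of p53, had 86 first-listed against 58 second-listed reads (0.63, 0.13 to 1.13), and RPS27L 39 first-listed against 68 second-listed reads (−0.75, −1.35 to −0.16). The BCL2 family and its partners had a median of 0.07 (−0.04 with equal reads), with BBC3, the p53-induced killer PUMA, at 335 first-listed against 235 second-listed reads (0.57, 0.32 to 0.82), and XIAP, a caspase inhibitor, at 38 first-listed against 60 second-listed reads (−0.60, −1.23 to 0.01).

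Genes of mitochondria had group medians from 0.06 to 0.24, beside 0.11 for all genes. Oxidative phosphorylation subunits had a median of 0.09 (−0.02 with equal reads), 18 above 0 and 11 below. NDUFV3 and NDUFS5, of complex I, had 60 first-listed against 39 second-listed reads (0.68, 0.07 to 1.30) and 89 first-listed against 59 second-listed reads (0.65, 0.16 to 1.15), and ATP5PB, of the ATP synthase, 101 first-listed against 69 second-listed reads (0.61, 0.15 to 1.07). Genes of mitochondrial dynamics, biogenesis and import had 0.06 (−0.05 with equal reads). POLG, the mitochondrial DNA polymerase, had 175 first-listed against 238 second-listed reads at its RefSeq start (−0.39, −0.68 to −0.10) and 251 first-listed against 151 second-listed reads in a peak 4714 bp away (0.79, 0.49 to 1.09), so its 2 peaks differed in opposite directions, each beyond counting error. CHCHD6, of the cristae-organizing MICOS complex, had 143 first-listed against 80 second-listed reads in a peak 231224 bp from its RefSeq start (0.89, 0.49 to 1.31) and 39 first-listed against 37 second-listed reads at that start (0.13, −0.55 to 0.82). Mitochondrial ribosomal proteins had a median of 0.24, with 14 of 53 genes, and the SLC25 carriers 0.24, with 17 of 42. No peak of these 4 groups passed 1, against 2.46 percent of all peaks.

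Cytosolic ribosomal proteins had the median of all genes, 0.11, with 26 of 35 above 0. With equal reads that median was −0.0041. RPL11 had 128 reads in the first-listed against 69 in the second-listed group (0.95, 0.52 to 1.39) and RPL7 246 first-listed against 152 second-listed reads (0.75, 0.45 to 1.05). Ribosomal protein genes have many processed copies in the genome, to which reads of their exons can be split. Proteasome subunits had a median of 0.15, and PSMA4 had 119 first-listed against 73 second-listed reads at its RefSeq start (0.76, 0.33 to 1.20). Splicing factor genes had 0.14, 25 above 0 and 10 below, with LUC7L at 119 first-listed against 81 second-listed reads (0.61, 0.19 to 1.04) and SNRPD1 at 46 first-listed against 75 second-listed reads (−0.65, −1.21 to −0.10). Of the 75 ZNF genes 55 were above 0, with a median of 0.16, and of their 84 peaks 3 passed 1 upward and 1 downward, beside backgrounds of 1.55 percent and 0.909 percent. Those groups whose median lies between 0 and 0.114 change sign with equal reads, while their order does not.

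**Figure D5:**
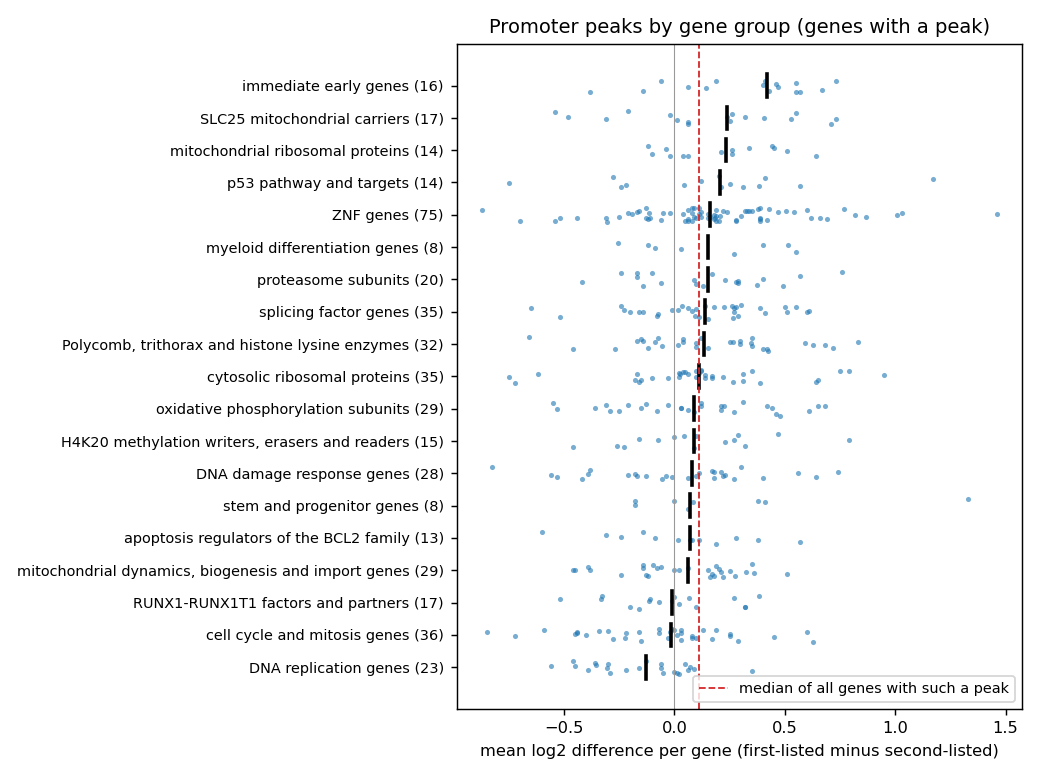
Mean log2 difference per gene (first-listed minus second-listed group) for gene groups with 5 or more genes that have a promoter peak, with the number of such genes in brackets. Dots are genes, black bars group medians, and the dashed line is the median of all genes with such a peak, 0.11. Immediate early genes have the highest median (0.42) and DNA replication genes the lowest (−0.13).

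By type of gene, 5029 of the peaks belonged to protein-coding genes, 280 to long noncoding RNAs, 85 to microRNAs and 16 to small nucleolar RNAs. The median density was 100 scaled reads per kb at microRNA genes and 70.1 at long noncoding RNAs, and the median log2 differences were 0.10 and 0.07. MicroRNA genes often lie inside other genes, and their peaks cannot be told apart from those of the host.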

How the data were processed

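CUT&Tag of H4K20me1 was run on 4 Kasumi-1 libraries, 2 per group. The submitters' processing notes name cutadapt, Bowtie2, DESeq and build hg38. No source used here gives versions, the peak caller or duplicate handling. The authors deposited 1 table for all peaks. The deposited values are log2 scaled reads per peak for each group, a log2 fold change, a raw p-value and one adjusted for multiple tests. The log2 fold change is the first-listed value less the second-listed, within 0.01. Whether a group's values come from 1 of its libraries or from both merged is not stated.

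All low values (log2 from 1.5 to 5.5), 5676 in the first-listed column and 5851 in the other, were log2 of a whole number plus a constant, 0 and −0.057, within 0.0051. Reads were recovered from this. Above about 100 reads, rounding to 2 decimals makes them approximate. Whether both fragment ends were counted is not known, and where they were, intervals are too narrow. A count test could not be fitted with 1 column per group.

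Differences past 1 in size were counted. Genes named were the 10 highest and 10 lowest peaks of at least median signal (1 per gene, uncharacterized and small or antisense RNA genes left out), KMT5A, the 5 deepest, the 3 widest, up to 3 per group of 24 gene groups, and 7 central genes. CLEC18B and GATAD2A were chosen after their values were seen. A gene that the rule named is left out of the text. Members and gene groups were chosen with earlier results of these data known. Of 4691 genes 4677 were found in RefSeq (GRCh38.p14). The method was tested on simulated data. Python 3.11.15, pandas 2.3.3 and scipy 1.17.1 were used.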

Additional observations from a re-analysis of the deposited data

How the results depend on the processing

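No paired analysis was possible because the table holds 1 column per group and names no library. For the same reason no library could be left out. Of the promoter peaks past a log2 difference of 1 (70, 54 higher and 16 lower), 13 (12 and 1) were among those of at least median signal, where the median difference was 0.15. With equal reads per column there were 26 higher and 37 lower and the median was −0.0041, and with no scaling it was 0.053. With the 6 chromosome parts included there were 31 lower and the median was 0.08, and only 10 lower were among peaks that overlap a start. At a log2 difference of 0.5 there were 988 (725 and 263), and the share of all peaks past 0.5 was not counted. By the unadjusted p-values of the authors' deposited table there were 198 under 0.05 (160 and 38). By the adjusted ones there were 0, with 0 higher and 0 lower. The cause of these shifts was not tested, apart from the fewer or more peaks counted. Median width was 1437 bp over peaks that overlap a start and median depth 101.6 scaled reads with the 6 parts. The share reaching farther downstream was 74.6% for genes with 1 promoter peak and 83.4% with a single RefSeq start inside. That last setting, and those without peaks on alternate sequences (66) or under 8 scaled reads (56), were chosen after seeing the data. Depth limits single peaks: at about 100 reads per group a log2 difference under about 0.4 lies within counting error.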
